A study of Homo sapiens with 21 samples.

Results

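NRF2, the transcription factor encoded by NFE2L2, switches on genes that protect cells from oxidants and reactive chemicals, and 9 genes of that system were followed here: NFE2L2 itself and the 8 target genes SLC7A11, GCLC, GCLM, TXNRD1, SRXN1, NQO1, HMOX1 and ME1. They were chosen by name, the 8 as established NRF2 targets, with earlier results of these data known, and all 9 were found among the 65065 genes of the deposited table. The measurements came from HCT-116, a human colorectal carcinoma cell line, after the cells were given extracellular vesicles (EVs), the membrane-bound particles that cells release into body fluids. EVs had been isolated from serum by GlyExo-Capture. HCC+ EVs came from people with hepatocellular carcinoma and were given at 0.048, 0.24 or 1.2 mg/mL, HCC- EVs came from healthy people and were given at the same doses, and the blank cells received no EVs. Cells of all 7 groups grew in DMEM with exosome-depleted serum, so no group saw whole serum. Each group had 3 libraries of poly(A) RNA, 21 in all. The labels do not say whether the replicates were separate cultures or how many people gave serum, so the p-values measure only the spread between these libraries.

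In resting cells the adaptor KEAP1 brings NRF2 to a CUL3 ubiquitin ligase and NRF2 is quickly degraded. Oxidants and electrophiles modify cysteines of KEAP1, NRF2 then builds up, pairs with small MAF proteins in the nucleus and binds antioxidant response elements (AREs) near its targets. The targets supply cystine and build glutathione (SLC7A11, GCLC, GCLM), reduce thioredoxin and peroxiredoxins (TXNRD1, SRXN1), reduce quinones and break down haem (NQO1, HMOX1) and supply NADPH (ME1). Because NRF2 is controlled mainly as a protein, the NFE2L2 transcript is not a measure of its activity.

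The ARE core TGACNNNGC, with N for any base, was searched on both strands of RefSeq promoter windows (GRCh38.p14) of 300 bases, 250 before and 50 after a start site. Windows were found for 7 of the 9 genes, in 9 windows. The core was present in 4 windows of 3 genes, GCLM, ME1 and TXNRD1, and in 16.1% of all 27305 genes with a window. The cores that lie clearly upstream of a start are shown because they hold the letters NRF2 is known to bind, with the core in capitals and 25 bases on each side. The GCLM core was centred 30 bases before the start (chr1:93909431-93909489, plus strand), the ME1 core 133 bases before it (chr6:83431155-83431213, minus strand), and the TXNRD1 cores 95 and 98 bases before 2 different starts (chr12:104215655-104215713, plus strand, and chr12:104286905-104286963, minus strand). A match is a description of letters, not of binding in these cells, and a further core of TXNRD1 and of ME1, close to a start, is not shown.
GCLM: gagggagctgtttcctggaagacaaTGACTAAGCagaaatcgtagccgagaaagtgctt
ME1: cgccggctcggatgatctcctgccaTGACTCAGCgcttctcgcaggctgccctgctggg
TXNRD1, upstream start: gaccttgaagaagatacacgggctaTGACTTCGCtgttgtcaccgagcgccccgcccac
TXNRD1, downstream start: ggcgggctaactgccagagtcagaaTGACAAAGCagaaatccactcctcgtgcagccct
Of the 3 genes that hold a core, GCLM and TXNRD1 were called lower against the blank at 1.2 mg/mL of HCC+ EVs and ME1 was not, while all 3 were called lower at 1.2 mg/mL of HCC- EVs. Among genes whose windows held no core, NFE2L2 and NQO1 were called lower with both sources, SRXN1 with HCC+ EVs only and GCLC with neither. A window without a core does not show that a gene has none, since sites more than 250 bases before a start were not searched. Over all tested genes 17.4% (HCC+) and 28.5% (HCC-) were lower. With GC content and length trends removed, the HCC- changes of GCLM and ME1 were 0.00 and 0.07. A link between core and fall was not tested.

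In the deposited table, on GRCh38, NFE2L2 (ENSG00000116044) lies at chr2:177227595-177392697 and NQO1 (ENSG00000181019) at chr16:69706996-69726668, both on the minus strand. SLC7A11 (ENSG00000151012) lies at chr4:138164097-138242349, GCLC (ENSG00000001084) at chr6:53497341-53616970 and GCLM (ENSG00000023909) at chr1:93885199-93909456, all on the minus strand. TXNRD1 (ENSG00000198431) lies at chr12:104215779-104350307 on the plus strand and SRXN1 (ENSG00000271303) at chr20:646615-653370 on the minus strand. HMOX1 (ENSG00000100292) lies at chr22:35380361-35394207 on the plus strand and ME1 (ENSG00000065833) at chr6:83210402-83431051 on the minus strand. Other annotated genes cover part of 5 of these. An unnamed gene on the same strand shares 85% of the exon bases of SRXN1, and reads there could have been counted for either gene or for neither. The shared part was 21.9% for NFE2L2, 19.4% for NQO1, 9.0% for SLC7A11 and 6.2% for GCLC, and 0.0% for HMOX1, GCLM, TXNRD1 and ME1. In NQO1 and SLC7A11 the overlap was with a gene on the opposite strand, and no source used here gives the strand setting of the counting.

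The libraries held 31.22 to 64.01 M counts. The unit CPM is a count scaled by TMM factors to a common library size, and FPKM, used between genes, is CPM per kilobase of exon. A rise or fall means a Benjamini-Hochberg adjusted p under 0.05 over 19556 tested genes, from the edgeR quasi-likelihood fit of the 21 libraries together, and log2 fold changes are given ± SE. All 9 genes passed the filter on low counts. Of the 10 epithelial genes used to check the cell line, 0 lacked counts over the 21 libraries together and 8 passed the filter. Their sums were 3568 to 5083 CPM. A list of 12 blood cell markers summed to 3.01 to 4.49 CPM at 1.2 mg/mL of HCC+ EVs, 5.25 to 7.30 CPM at 1.2 mg/mL of HCC- EVs and 1.17 to 1.58 CPM in the blank, with PPBP, PF4, S100A8 and S100A9 at 0 counts and 3 of the 4 tested genes called higher with each source. Endothelial and fibroblast markers, 8 genes, summed to 24.3 to 34.1, 35.8 to 41.3 and 14.8 to 18.3 CPM in these groups, with LUM at 0 and all 3 tested genes called higher with each source. The 10 hepatocyte markers summed to 2.2 to 4.45 CPM over all groups, with APOB and FGA at 0. Of 3 tested hepatocyte genes, 1 was called higher at 1.2 mg/mL of HCC+ EVs and 0 with HCC- EVs. NEAT1 and MALAT1, RNAs kept in the nucleus, summed to 342 to 403 CPM with HCC+ EVs, 413 to 502 CPM with HCC- EVs and 222 to 287 CPM in the blank. The part of these in the results below was not tested. RNA brought by EVs and RNA made by the cells cannot be told apart, and neither can a lower level per cell and fewer cells that express a gene.

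At 1.2 mg/mL, 6 of the 9 genes were lower and 1 was higher than in the blank with either source of EVs, although the genes were not the same 6. With HCC+ EVs there were falls of NFE2L2, SLC7A11, GCLM, TXNRD1, SRXN1 and NQO1 and a rise of HMOX1. In HCC- cells NFE2L2, SLC7A11, GCLM, TXNRD1, NQO1 and ME1 fell and HMOX1 rose. Over all tested genes, 33% were called in HCC+ against blank (15.6% higher, 17.4% lower) and 53.3% in HCC- against blank (24.8% higher, 28.5% lower), so calls were common at this dose. The median log2 fold change over the 9 genes was -0.23 in HCC+ and -0.39 in HCC- cells, while that over all tested genes was 0.01 in HCC+ and 0.05 in HCC- cells. Scaling to library totals alone, which raised the median of all genes by 0.12 (HCC+) and 0.28 (HCC-), left 4 lower and 1 higher in HCC+ cells and 3 lower and 2 higher in HCC- cells. Calls over all tested genes then stood at 2069 lower and 4657 higher in HCC+ cells and 3097 lower and 8128 higher in HCC- cells, against 3398 lower and 3046 higher in HCC+ cells and 5574 lower and 4844 higher in HCC- cells with TMM factors. With trends by GC content and gene length removed, 5 fell and 2 rose in HCC+ cells and 4 fell and 2 rose in HCC- cells, and over all tested genes 3431 fell and 3725 rose in HCC+ cells and 4340 fell and 6931 rose in HCC- cells.

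**Figure D1:**
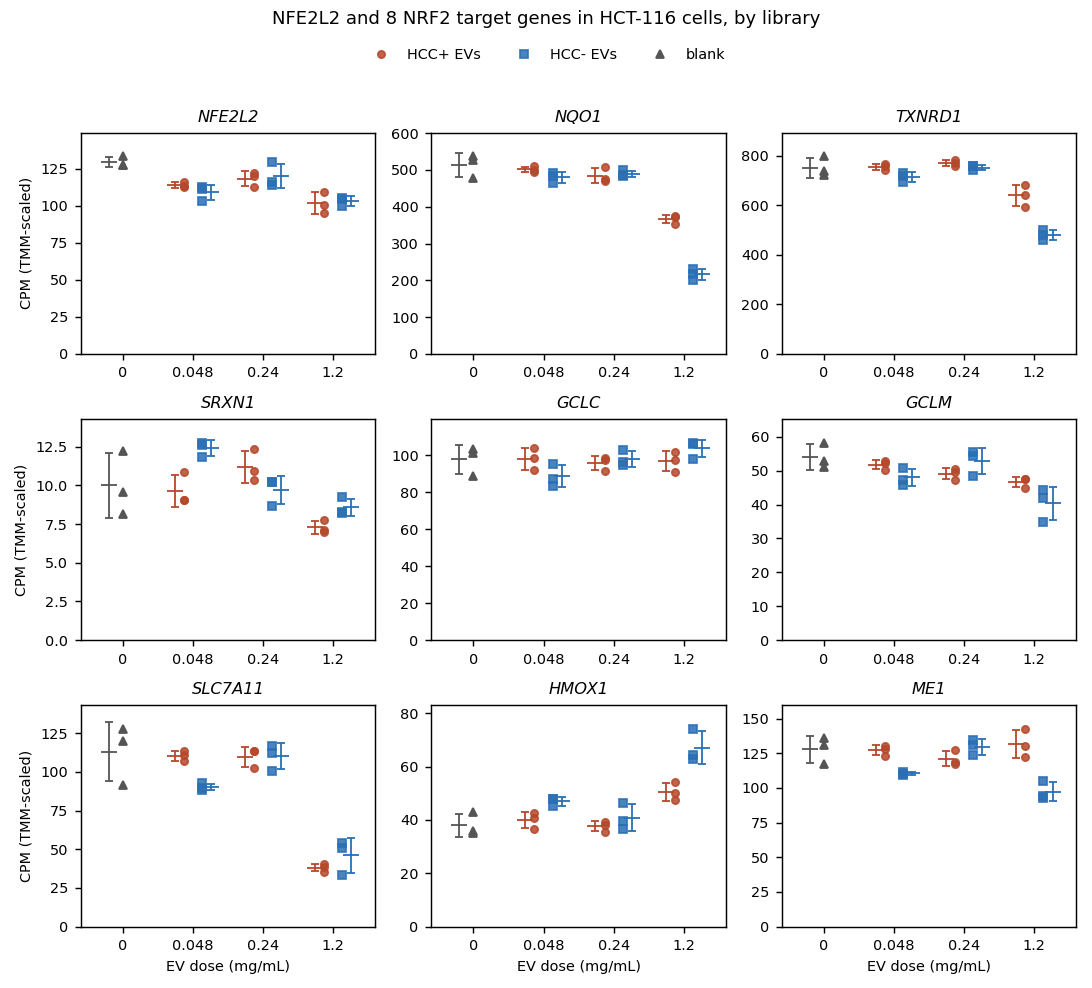
CPM of NFE2L2 and its 8 targets in each of the 21 libraries, against EV dose in mg/mL, with the blank at 0; points are libraries (circles HCC+, squares HCC-, triangles blank), and dashes with bars are the mean ± SD of 3 libraries. NQO1 and SLC7A11 at 1.2 mg/mL lie below every library of the lower doses and of the blank, and HMOX1 at 1.2 mg/mL of HCC- EVs lies above them.

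NFE2L2 stood at 95.1, 109 and 100 CPM in HCC+ cells at 1.2 mg/mL, at 105, 99.5 and 105 CPM in HCC- cells at that dose, and at 133, 128 and 127 CPM in the blank. The 6 libraries at 1.2 mg/mL lay below all 3 blank libraries. The 12 libraries of the lower doses stood between 103 and 129 CPM. Those of HCC+ EVs at 0.24 and 0.048 mg/mL and of HCC- EVs at 0.048 mg/mL also lay below the blank. Its log2 fold change against the blank was -0.35 ± 0.06 (adjusted p = 5.49e-05) with HCC+ and -0.33 ± 0.06 (adjusted p = 4.60e-05) with HCC- EVs. The HCC+ and HCC- libraries overlapped, with a difference of -0.02 (95% interval -0.14 to 0.10). Scaled to library totals, the HCC- change was -0.04 and not called, so the fall of NFE2L2 in HCC- cells depends on the scaling.

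SLC7A11, the transporter that brings in cystine for glutathione, had the largest fall against the blank of the 9 genes with HCC+ EVs and was close to NQO1 with HCC- EVs. It stood at 40.2, 38.5 and 35.5 CPM in HCC+ cells, at 50.9, 33.2 and 53.8 CPM in HCC- cells and at 128, 91.8 and 120 CPM in the blank. No library at 1.2 mg/mL reached a blank library, and the 12 libraries of the 2 lower doses stood between 88.5 and 117 CPM. The log2 fold change was -1.57 ± 0.13 (adjusted p = 3.18e-09) for HCC+ and -1.30 ± 0.13 (adjusted p = 7.27e-09) for HCC- EVs, and both calls held in every alternative that was run. The HCC- change of NQO1 was -1.25, and without HCC- replicate 2 the changes were -1.10 for SLC7A11 and -1.29 for NQO1. HCC+ cells differed from HCC- cells by -0.27 ± 0.13 (adjusted p = 0.0968), which was not called. The HCC- library at 33.2 CPM lay below all HCC+ libraries, and without it (replicate 2) the difference was -0.47 and called. SLC3A2, the heavy chain that SLC7A11 pairs with, stood at 313 ± 15.2 CPM in HCC+ cells, 438 ± 47.0 CPM in HCC- cells and 614 ± 38.6 CPM in the blank (SD, n = 3 each), with log2 fold changes against the blank of -0.97 ± 0.07 (adjusted p = 3.08e-12) for HCC+ and -0.49 ± 0.07 (adjusted p = 2.69e-07) for HCC- EVs.

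Glutamate-cysteine ligase makes the first intermediate of glutathione, with GCLC as its catalytic and GCLM as its modifier subunit. GCLC stood at 91.0, 102 and 97.7 CPM in HCC+ cells, at 106, 98.3 and 107 CPM in HCC- cells and at 101, 89.0 and 103 CPM in the blank. These libraries overlapped, and the difference from the blank was -0.02 (95% interval -0.15 to 0.12) for HCC+ and 0.09 (-0.05 to 0.22) for HCC- EVs. With library totals alone or with GC and length trends removed, GCLC was called higher in HCC- cells, by 0.37 and 0.23. GCLM stood at 47.4, 47.5 and 45.0 CPM in HCC+ cells, at 41.9, 35.0 and 44.4 CPM in HCC- cells and at 58.3, 52.8 and 51.1 CPM in the blank, with the 6 treated libraries below the blank ones. Its log2 fold change was -0.21 ± 0.08 (adjusted p = 0.034) for HCC+ and -0.42 ± 0.08 (adjusted p = 3.18e-05) for HCC- EVs. Both falls depend on the processing: with GC and length trends removed GCLM differed by -0.04 in HCC+ cells and 0.00 in HCC- cells, and with library totals alone by -0.09 and -0.14, none of them called. The HCC+ call was also lost without any 1 of the HCC+ libraries (-0.18 to -0.23) and without blank replicate 1 (-0.16). Exons of GCLM have a GC content of 37.3%, against 44.3% for GCLC.

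TXNRD1, the cytosolic thioredoxin reductase, passes electrons from NADPH to thioredoxin. In HCC+ cells it stood at 595, 682 and 643 CPM, in HCC- cells at 502, 481 and 459 CPM and in the blank at 799, 739 and 721 CPM. The 3 groups did not overlap, with HCC- lowest, and the 12 libraries of the lower doses stood between 693 and 785 CPM. The log2 fold change was -0.23 ± 0.05 (adjusted p = 0.000932) for HCC+ and -0.65 ± 0.05 (adjusted p = 1.00e-11) for HCC- EVs. The HCC+ fall was -0.11 and not called with library totals alone, while the HCC- fall was called in every alternative. SRXN1, sulfiredoxin, which repairs overoxidised peroxiredoxins, stood at 6.98, 7.11 and 7.77 CPM in HCC+ cells, at 8.30, 8.19 and 9.24 CPM in HCC- cells and at 8.12, 12.3 and 9.61 CPM in the blank. The HCC+ libraries lay below the blank and the HCC- libraries overlapped it. SRXN1 fell by 0.46 on the log2 scale with HCC+ EVs (-0.46 ± 0.13, adjusted p = 0.00463), and the change with HCC- EVs was -0.23 ± 0.12 (adjusted p = 0.126). Without blank replicate 2, the highest blank library at 12.3 CPM, the HCC+ change was -0.29 and not called. Without blank replicate 1, the lowest at 8.12 CPM, the HCC- change was -0.36 and called lower. Most exon bases of SRXN1 are shared with another gene.

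NQO1, a quinone reductase long used as a readout of NRF2, had the largest difference between the sources. HCC+ cells had 354, 375 and 371 CPM, HCC- cells 216, 232 and 202 CPM and blank cells 537, 526 and 478 CPM. The groups did not overlap, and the 12 libraries of the lower doses stood between 464 and 510 CPM. Its log2 fold change against the blank was -0.49 ± 0.06 (adjusted p = 6.45e-08) for HCC+ and -1.25 ± 0.06 (adjusted p = 1.55e-17) for HCC- EVs. HMOX1, haem oxygenase 1, moved the other way: it stood at 54.2, 47.4 and 50 CPM in HCC+ cells, at 62.8, 64.2 and 74.1 CPM in HCC- cells and at 35.9, 42.9 and 34.9 CPM in the blank. The groups did not overlap, with HCC- highest. HMOX1 rose by 0.41 ± 0.09 (adjusted p = 0.000479) with HCC+ and by 0.82 ± 0.09 (adjusted p = 2.61e-09) with HCC- EVs, or 1.33-fold and 1.77-fold. The calls for NQO1 and HMOX1 against the blank at this dose held in every alternative that was run.

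ME1, cytosolic malic enzyme, makes NADPH from malate. It stood at 122, 143 and 130 CPM in HCC+ cells, at 105, 94.2 and 92.6 CPM in HCC- cells and at 136, 117 and 131 CPM in the blank. HCC+ and blank libraries overlapped, and HCC- libraries lay below both. The change was 0.04 ± 0.07 (adjusted p = 0.683, 95% interval -0.09 to 0.17) for HCC+ and -0.39 ± 0.07 (adjusted p = 8.03e-06) for HCC- EVs. The HCC- fall was -0.11 and not called with library totals alone, and was 0.07 with GC and length trends removed, where the HCC+ change was 0.25 and called.

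Per kilobase, NQO1 was the most abundant transcript of the blank at 173 ± 10.6 FPKM, followed by TXNRD1 at 112 ± 6.06, ME1 at 38.3 ± 2.89, NFE2L2 at 22.8 ± 0.606 and HMOX1 at 16.5 ± 1.91 FPKM (SD, n = 3). SLC7A11 at 11.7 ± 1.96 and GCLC at 11.3 ± 0.896 FPKM did not differ beyond their spread, GCLM stood below GCLC at 9.97 ± 0.69 FPKM, and SRXN1 came last at 3.70 ± 0.776 FPKM. The length used includes exon bases shared with other genes, 85% for SRXN1, 21.9% for NFE2L2, 19.4% for NQO1, 9.0% for SLC7A11 and 6.2% for GCLC. Reads there may have been counted for neither gene, so the places of these genes in the order are uncertain. The order differed at 1.2 mg/mL. In HCC- cells NQO1 at 72.8 ± 5.02 and TXNRD1 at 71.7 ± 3.23 FPKM did not differ beyond their spread, nor did ME1 at 29.2 ± 2.08 and HMOX1 at 29.2 ± 2.68 FPKM. By this measure, with that limit for NFE2L2, HMOX1 was above NFE2L2 in HCC+ cells, at 22.0 ± 1.48 against 17.9 ± 1.27 FPKM for NFE2L2. It was also above NFE2L2 in HCC- cells, where NFE2L2 stood at 18.2 ± 0.554 FPKM. SLC7A11 had moved below GCLM, to 3.95 ± 0.246 FPKM against 8.60 ± 0.263 FPKM for GCLM in HCC+ cells and 4.77 ± 1.16 against 7.45 ± 0.895 FPKM in HCC- cells.

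**Figure D2:**
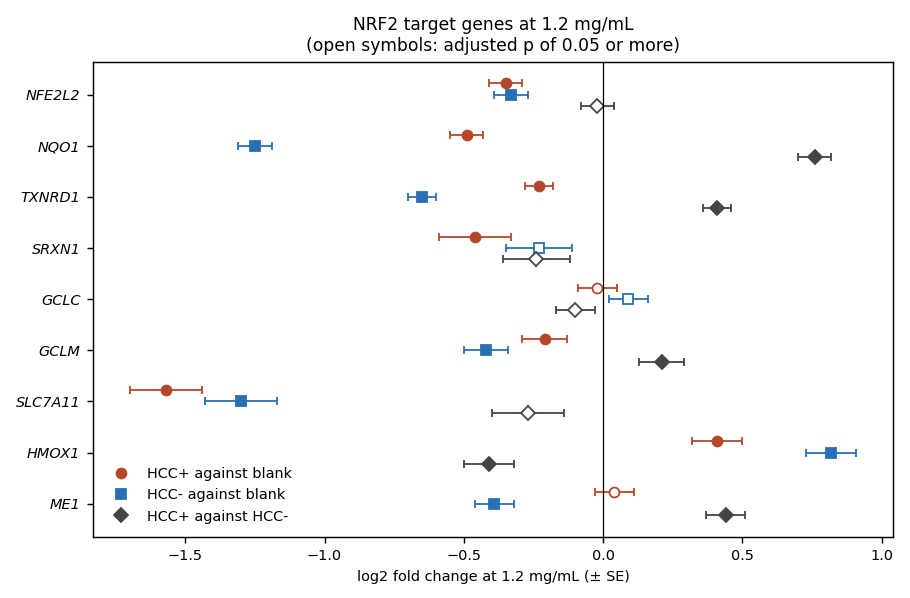
Log2 fold changes ± SE of the 9 genes at 1.2 mg/mL from edgeR, for HCC+ against blank, HCC- against blank and HCC+ against HCC-; filled symbols have an adjusted p under 0.05. SLC7A11 lies farthest left against the blank with HCC+ EVs, NQO1 and TXNRD1 are lower in HCC- than in HCC+ cells, and HMOX1 is the gene that is higher than in the blank with both sources.

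HCC+ and HCC- EVs were compared directly at each dose, to see whether the source of the EVs mattered. At 1.2 mg/mL 4 of the 9 genes were higher and 1 was lower in HCC+ than in HCC- cells, where 35.3% of all tested genes were called (22.6% higher, 12.7% lower). NQO1 differed by 0.76 ± 0.06 (adjusted p = 5.65e-12), ME1 by 0.44 ± 0.07 (adjusted p = 4.72e-06) and TXNRD1 by 0.41 ± 0.05 (adjusted p = 3.60e-07). HMOX1 was lower in HCC+ cells, by -0.41 ± 0.09 (adjusted p = 0.000409). For these 4 genes the HCC+ and HCC- libraries did not overlap, and the calls held in every alternative. GCLM was higher by 0.21 ± 0.08 (adjusted p = 0.0368), a call that was lost with RLE factors (0.19), library totals alone (0.04), only the groups compared (0.17), DESeq2 (0.19) and without any 1 of the HCC+ libraries (0.18 to 0.23) or HCC- replicate 2 (0.10), and the difference was -0.05 with GC and length trends removed. GCLC (-0.10 ± 0.07) and SRXN1 (-0.24 ± 0.12) were not called, with adjusted p = 0.267 and 0.145. Library totals alone and removal of GC and length trends each gave 3 genes higher and 5 lower in HCC+ cells: NFE2L2 (-0.18 and -0.14), GCLC (-0.26 and -0.20), SRXN1 (-0.40 and -0.33) and SLC7A11 (-0.44 and -0.49) were then called lower and GCLM was not called. Over all tested genes the balance turned as well, to 2342 higher and 4572 lower with library totals alone and 3323 higher and 4519 lower with the trends removed, against 4411 higher and 2490 lower with TMM factors.

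At 0.24 mg/mL none of the 9 genes was called between HCC+ and HCC- EVs, nor was any of the tested genes (0%), with 462 at an unadjusted p under 0.05. At 0.048 mg/mL none of the 9 was called, where 3.54% of all genes were (1.08% higher, 2.46% lower). That share rests on single libraries: 212 genes were higher and 481 lower, against 2 and 0 without HCC- replicate 1, 3 and 0 without HCC- replicate 2 or HCC+ replicate 2, 4 and 0 without HCC+ replicate 3, 43 and 215 without HCC+ replicate 1, and 1540 and 2101 when only the groups compared were fitted. The largest of these differences at 0.048 mg/mL was SRXN1, -0.36 ± 0.12 (adjusted p = 0.0836), with libraries at 10.9, 9.07 and 9.05 CPM in HCC+ cells and 12.8, 11.9 and 12.6 CPM in HCC- cells. DESeq2 called 1 gene higher, ME1 (0.19), and 1 lower, SRXN1 (-0.37), and the fit of only the groups compared called 2 higher, ME1 and SLC7A11, and 2 lower, HMOX1 and SRXN1.

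Against the blank, the lower doses gave few calls. With HCC+ EVs at 0.24 mg/mL, 0 of the 9 were called, where 0.00511% of all genes were. HCC+ EVs at 0.048 mg/mL and HCC- EVs at 0.24 mg/mL also gave 0 calls among the 9, where 0% of all tested genes were called in each and 944 and 905 had an unadjusted p under 0.05, and DESeq2 called none of the 9 there either. With HCC- EVs at 0.048 mg/mL, where 16.4% of all genes were called (8.28% higher, 8.16% lower), HMOX1 rose by 0.31 ± 0.09 (adjusted p = 0.0212), NFE2L2 fell by 0.25 on the log2 scale (-0.25 ± 0.06, adjusted p = 0.0116) and ME1 fell by 0.21 (-0.21 ± 0.07, adjusted p = 0.0302). HMOX1 stood there at 47.8, 47.9 and 45.1 CPM against 35.9, 42.9 and 34.9 CPM in the blank, NFE2L2 at 113, 111 and 103 CPM against 133, 128 and 127 CPM, and ME1 at 112, 110 and 110 CPM against 136, 117 and 131 CPM, and none of these groups overlapped. With GC and length trends removed none of the 3 was called (HMOX1 0.10, NFE2L2 -0.17, ME1 0.01). The share over all genes also depends on single libraries, since 1620 higher and 1596 lower calls became 0 and 1 without blank replicate 1, 8 and 4 without blank replicate 3, 2925 and 2801 without blank replicate 2, 658 and 853 without HCC- replicate 1, 411 and 295 without HCC- replicate 2, 1028 and 802 without HCC- replicate 3, and 69 and 42 with the trends removed. Leaving out 1 library gave 0 to 2 of the 9 genes higher and 0 to 4 lower, with 2 higher and 4 lower without blank replicate 2. SLC7A11 stood at 92.6, 88.5 and 89.5 CPM there and SRXN1 at 12.8, 11.9 and 12.6 CPM, with changes against the blank of -0.32 ± 0.12 (adjusted p = 0.0751) and 0.31 ± 0.12 (adjusted p = 0.0873). SLC7A11 was called lower there by DESeq2 (-0.33), with only the groups compared (-0.33), with no filter except 1 count (-0.32) and without blank replicate 2 (-0.45), where SRXN1 was called higher (0.48).

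Within each source, 6 to 8 of the 9 genes differed between 1.2 mg/mL and a lower dose. For HCC+ EVs 1.2 against 0.24 mg/mL, where 29.2% of all genes were called (13.7% higher, 15.5% lower), HMOX1 rose (0.42 ± 0.09, adjusted p = 0.000424) and 5 genes fell: SLC7A11 (-1.53 ± 0.13), SRXN1 (-0.62 ± 0.12), NQO1 (-0.40 ± 0.06), TXNRD1 (-0.27 ± 0.05) and NFE2L2 (-0.22 ± 0.06). Against 0.048 mg/mL of HCC+ EVs (28.3% of all genes called, 13.4% higher and 14.9% lower) these 6 genes were called in the same directions, SLC7A11 by -1.54 ± 0.13 and HMOX1 by 0.34 ± 0.09. The NFE2L2 call there (-0.16 ± 0.06, adjusted p = 0.0466) was lost with RLE factors (-0.15), no filter except 1 count (-0.16), library totals alone (-0.07), GC and length trends removed (-0.11) and without HCC+ 1.2 mg/mL replicate 1 or 3 or any 1 of the 0.048 mg/mL libraries (-0.11 to -0.18), and the SRXN1 call with library totals alone (-0.32) and without replicate 1 of either dose (-0.38 and -0.31). Against 0.24 mg/mL the NFE2L2 call was lost with library totals alone (-0.11) and without HCC+ 1.2 mg/mL replicate 1 (-0.17). For HCC- EVs 1.2 against 0.24 mg/mL (51.8% of all genes called, 23.9% higher and 28% lower) HMOX1 rose by 0.71 ± 0.09 and SLC7A11 (-1.26 ± 0.13), NQO1 (-1.18 ± 0.06), TXNRD1 (-0.65 ± 0.05), ME1 (-0.41 ± 0.07), GCLM (-0.38 ± 0.08) and NFE2L2 (-0.22 ± 0.06) fell. For HCC- EVs 1.2 against 0.048 mg/mL (52.8% called, 24.9% higher and 28% lower) HMOX1 (0.51 ± 0.09) and GCLC (0.23 ± 0.07) rose. The 6 genes that fell were NQO1 (-1.15 ± 0.06), SLC7A11 (-0.97 ± 0.13), TXNRD1 (-0.57 ± 0.05), SRXN1 (-0.53 ± 0.12), GCLM (-0.25 ± 0.08) and ME1 (-0.18 ± 0.07). NFE2L2 was not called there (-0.08 ± 0.06), and the SRXN1 call was lost with library totals alone (-0.24). Single libraries decided some of the smaller calls against 0.048 mg/mL: GCLC was not called without HCC- 0.048 mg/mL replicate 2 (0.18), GCLM not without HCC- 1.2 mg/mL replicate 2 (-0.14), and ME1 not without HCC- 1.2 mg/mL replicate 2 (-0.15) or 3 (-0.14) or HCC- 0.048 mg/mL replicate 1 (-0.18). The comparisons within a source share its 1.2 mg/mL libraries. With library totals alone the split was 2 higher and 4 lower against 0.24 mg/mL for either source, 1 higher and 3 lower against 0.048 mg/mL for HCC+ EVs and 3 of each for HCC- EVs. With GC and length trends removed it was 2 higher and 5 lower for HCC+ and 2 higher and 3 lower for HCC- EVs against 0.24 mg/mL, and 2 higher and 4 lower for either source against 0.048 mg/mL.

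The difference between the sources was itself tested for a change from 0.048 to 1.2 mg/mL, where 24.3% of all genes were called (16.7% higher, 7.63% lower). It changed for 3 of the 9 genes, 2 toward higher and 1 toward lower, against 1 and 4 with library totals alone and 2 and 3 with GC and length trends removed. Over all tested genes the counts were 3257 toward higher and 1493 toward lower, against 1631 and 3219 with library totals alone and 2629 and 3215 with the trends removed. NQO1 changed by 0.70 ± 0.08 (adjusted p = 1.07e-07) and TXNRD1 by 0.33 ± 0.08 (adjusted p = 0.00138), both toward higher in HCC+ cells. SLC7A11 changed by -0.57 ± 0.18 (adjusted p = 0.0216), since its HCC+ level was 110 ± 3.33 CPM against 90.2 ± 2.13 CPM in HCC- cells at 0.048 mg/mL, and 38.1 ± 2.37 CPM in HCC+ cells against 46.0 ± 11.2 CPM in HCC- cells at 1.2 mg/mL (SD, n = 3 each). The SLC7A11 call was lost without HCC+ 1.2 mg/mL replicate 3 (-0.52), HCC+ 0.048 mg/mL replicate 2 (-0.54), or HCC- 1.2 mg/mL replicate 1 (-0.49) or 3 (-0.44), and the TXNRD1 call was lost with library totals alone (0.14).

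Over the 21 libraries, the 9 genes followed each other unevenly. The Pearson r of log2 CPM was 0.977 between NQO1 and TXNRD1, -0.922 between HMOX1 and TXNRD1, -0.896 between HMOX1 and NQO1 and -0.0121 between GCLC and NFE2L2. These values describe libraries that share depth and scaling. All 6 libraries at 1.2 mg/mL lie outside the rest for NQO1, SLC7A11 and TXNRD1, and how many of all tested genes separate in this way was not counted. Among 9995 genes of at least 3 mean log2 CPM, the pattern of NQO1 was most like MDH1 (r = 0.995) and NCAPH (0.993), that of TXNRD1 most like SERBP1 (0.99) and ASPH (0.989), and that of ME1 most like TMEM64 (0.971) and CPNE3 (0.967). SLC7A11 was most like DHX33 (0.974) and SRSF3 (0.971), and GCLM most like ASAH1 (0.949) and BAG2 (0.939). HMOX1 was most like FURIN (0.962) and ISYNA1 (0.961), SRXN1 most like MID1IP1 (0.935) and SMARCA4 (0.933), and NFE2L2 most like SDAD1 (0.92) and PIBF1 (0.917).

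The lists that follow are read beside all tested genes at 1.2 mg/mL, of which 15.6% rose and 17.4% fell with HCC+ EVs, 24.8% rose and 28.5% fell with HCC- EVs, and 22.6% were higher and 12.7% lower in HCC+ than in HCC- cells. The regulators of NRF2 went both ways. Of 17 tested genes that control NRF2 or belong to its family, at 1.2 mg/mL HCC+ EVs gave 5 that rose and 4 that fell and HCC- EVs 7 that rose and 5 that fell, with medians of 0.08 in HCC+ and 0.02 in HCC- cells. With library totals alone the counts were 8 higher and 2 lower in HCC+ and 10 higher and 4 lower in HCC- cells, and with GC and length trends removed 8 higher and 3 lower in HCC- cells. KEAP1, which holds NRF2 for degradation, rose in both: it stood at 172, 159 and 166 CPM in HCC+ cells, 184, 197 and 227 CPM in HCC- cells and 132, 153 and 130 CPM in the blank, without overlap, with changes of 0.26 ± 0.07 (adjusted p = 0.00524) for HCC+ and 0.55 ± 0.07 (adjusted p = 1.20e-07) for HCC- EVs. It was lower in HCC+ than in HCC- cells (-0.29 ± 0.07, adjusted p = 0.00194). SQSTM1, the autophagy adaptor p62 that competes for KEAP1, rose by 0.30 ± 0.06 with HCC+ and 0.26 ± 0.06 with HCC- EVs (adjusted p = 0.000371 and 0.000853). CUL3 was not called in HCC+ cells (-0.15 ± 0.07, adjusted p = 0.13) and was called lower in HCC- cells (-0.17 ± 0.07, adjusted p = 0.0479), and its HCC- change was 0.11 with library totals and 0.09 with GC and length trends removed. Its HCC+ change was called without HCC+ replicate 2 (-0.22) or blank replicate 2 (-0.21), and its HCC- call was lost with DESeq2 (-0.16) and without HCC- replicate 2 (-0.12) or 3 (-0.15) or blank replicate 1 (-0.14) or 3 (-0.16). BACH1, the repressor that competes for AREs, was not called (-0.02 ± 0.11 in HCC+ and -0.15 ± 0.11 in HCC- cells), nor were the small MAF genes MAFF and MAFK, although with library totals alone both were called higher in HCC- cells (0.31 and 0.37). The small MAF gene MAFG rose with HCC- EVs (0.30 ± 0.07, adjusted p = 0.000312), and with HCC+ EVs it was called with library totals alone (0.20). NFE2L3, a relative of NFE2L2, fell in both (-0.34 ± 0.07 in HCC+ and -0.47 ± 0.07 in HCC- cells), as did PALB2 (-0.39 ± 0.11 and -0.60 ± 0.11) and PGAM5 (-0.27 ± 0.06 and -0.46 ± 0.06), proteins that bind KEAP1. The PALB2 call in HCC+ cells was lost without blank replicate 1 (-0.24) and with library totals alone (-0.27). Between the sources 3 of the 17 were higher and 4 lower in HCC+ cells, against 0 and 5 with library totals alone and 2 and 6 with the trends removed.

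**Figure D3:**
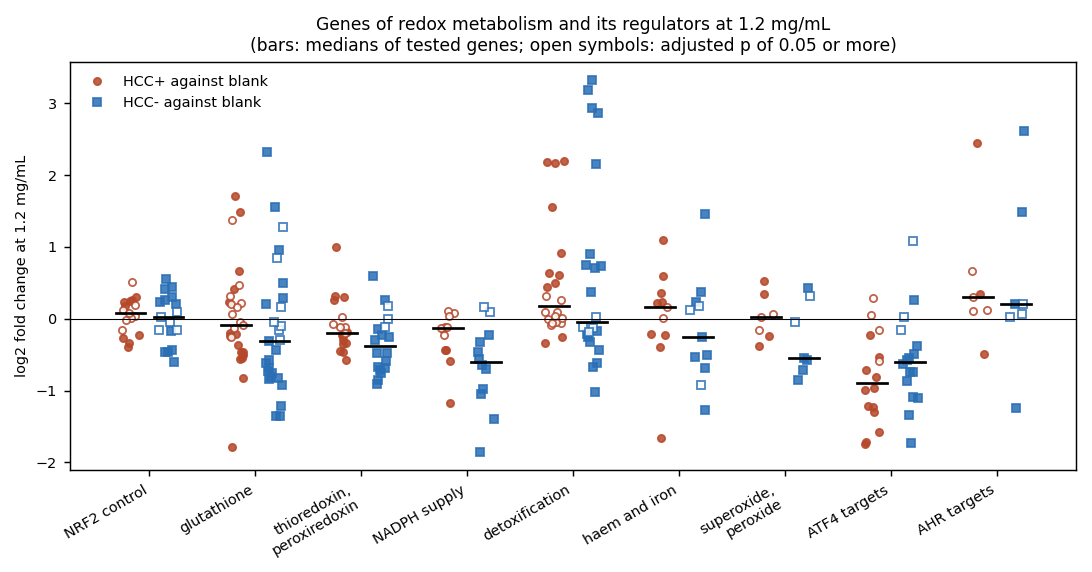
Log2 fold changes at 1.2 mg/mL against the blank of the tested genes of 9 lists around NRF2, one point per gene (circles HCC+, squares HCC-, open where the adjusted p was 0.05 or more), with bars at the list medians. ATF4 targets have the lowest HCC+ median, -0.89, NADPH supply genes in HCC- cells stand at a median of -0.60, and the highest detoxification genes are the aldo-keto reductases.

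Among genes that use and recycle glutathione, falls outnumbered rises with TMM factors. Of 27 tested, 11 fell and 5 rose with HCC+ EVs (median -0.09) and 14 fell and 6 rose with HCC- EVs (median -0.31), and 14 were higher and 2 lower in HCC+ than in HCC- cells. Under library totals alone, 8 fell and 9 rose in HCC+ cells, 13 fell and 9 rose in HCC- cells, and 11 were higher and 4 lower between the sources. CHAC1, which degrades glutathione, stood at 12.8, 8.50 and 8.42 CPM in HCC+ cells, 26.2, 28.6 and 43.5 CPM in HCC- cells and 33.1, 40.5 and 28.2 CPM in the blank. The HCC+ libraries lay below all others, with a change of -1.78 ± 0.19 (adjusted p = 7.19e-07) against the blank and -1.73 ± 0.19 (adjusted p = 6.96e-07) against HCC- cells, while HCC- cells differed from the blank by -0.05 ± 0.18 (adjusted p = 0.824). In HCC- cells GLO1 (-1.35 ± 0.08), the glyoxalase that uses glutathione, and GGCT (-1.35 ± 0.11), a glutamylcyclotransferase, fell most, and GPX2 (2.32 ± 0.57) and GGT1 (1.56 ± 0.45) rose most. GPX2 rested on 104 counts in HCC- cells at 1.2 mg/mL and 13 in the blank. In HCC+ cells GPX3 (1.49 ± 0.42) and GSTA1 (1.71 ± 0.61) rose and GPX8 fell (-0.82 ± 0.08), and the GSTA1 call was lost in 5 of the 6 fits that left out an HCC+ or blank library.

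Thioredoxin and peroxiredoxin genes fell more often than they rose. Of 18 tested, 9 fell and 4 rose with HCC+ EVs (median -0.20) and 13 fell and 2 rose with HCC- EVs (median -0.38), and 10 were higher and 1 lower in HCC+ than in HCC- cells. With library totals alone, 8 fell and 5 rose in HCC- cells and 6 were higher and 2 lower between the sources. TXN, thioredoxin itself and the substrate of TXNRD1, stood at 208, 221 and 194 CPM in HCC+ cells, 151, 151 and 157 CPM in HCC- cells and 298, 294 and 273 CPM in the blank. The groups did not overlap, with changes of -0.47 ± 0.07 (adjusted p = 1.34e-06) for HCC+ and -0.91 ± 0.07 (adjusted p = 4.25e-13) for HCC- EVs. In HCC- cells the peroxiredoxins PRDX6 (-0.86 ± 0.06), PRDX3 (-0.75 ± 0.06) and PRDX5 (-0.72 ± 0.07), which remove peroxides, fell, and PRDX6 was higher in HCC+ than in HCC- cells by 0.52 ± 0.06. In HCC+ cells SESN3 rose (1.00 ± 0.16) and SESN2 fell (-0.58 ± 0.09), both sestrins that respond to stress, and TXNRD3 fell (-0.45 ± 0.09).

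NADPH-supplying enzymes, which keep thioredoxin and glutathione reduced, were mostly higher in HCC+ than in HCC- cells. Of 12 tested, 5 fell and 0 rose with HCC+ EVs (median -0.13), and 10 fell and 0 rose with HCC- EVs (median -0.60). Between the sources 9 were higher and 1 lower in HCC+ cells. Library totals alone gave 2 that rose in each, beside 4 that fell in HCC+ and 8 in HCC- cells, and with GC and length trends removed 1 rose and 5 fell in HCC+ cells. ALDH1L2, the mitochondrial enzyme that makes NADPH from formyltetrahydrofolate, fell by -1.17 ± 0.17 with HCC+ and -1.85 ± 0.18 with HCC- EVs, MTHFD1 by -0.59 ± 0.06 and -1.40 ± 0.07, and TALDO1 of the pentose phosphate path by -0.44 ± 0.06 and -0.98 ± 0.06. IDH2, which makes NADPH in mitochondria, was not called with HCC+ EVs (-0.13 ± 0.08) and fell with HCC- EVs (-1.05 ± 0.08), and the sources differed by 0.92 ± 0.08 (adjusted p = 1.68e-10).

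The other drug-metabolising and export targets of NRF2 mostly rose where they were called with HCC+ EVs and went both ways with HCC- EVs. Of 22 tested, 9 rose and 2 fell with HCC+ EVs (median 0.18) and 10 rose and 8 fell with HCC- EVs (median -0.04). Library totals alone gave 11 that rose and 2 that fell in HCC- cells. Between the sources 5 were higher and 6 lower in HCC+ cells, against 4 and 8 with library totals alone. The largest rises were aldo-keto reductases, enzymes that reduce carbonyls and are strongly NRF2-dependent in many human cells. AKR1C3 stood at 7, 4.22 and 4.62 CPM in HCC+ cells, 8.87, 8.46 and 9.47 CPM in HCC- cells and 1.02, 1.01 and 1.45 CPM in the blank, and no groups overlapped. AKR1B10 stood at 1.87, 1.70 and 1.03 CPM in HCC+ cells, 4.20, 4.29 and 5.73 CPM in HCC- cells and 0.745, 0.197 and 0.649 CPM in the blank, again without overlap. AKR1C1 stood at 1.44, 1.22 and 0.778 CPM in HCC+ cells, 2.57, 1.83 and 3.05 CPM in HCC- cells and 0.338, 0.172 and 0.25 CPM in the blank, and AKR1C2 averaged 0.735 ± 0.0396 CPM in HCC+ cells, 1.18 ± 0.562 CPM in HCC- cells and 0.155 ± 0.0911 CPM in the blank (SD, n = 3 each). These are low levels, with 27 counts for AKR1C1 and 18 for AKR1C2 over the 3 blank libraries. AKR1C1 and AKR1C2 are near-identical copies between which reads can be split uncertainly. Some reads may also be shared with AKR1C3, a less similar relative.

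**Figure D4:**
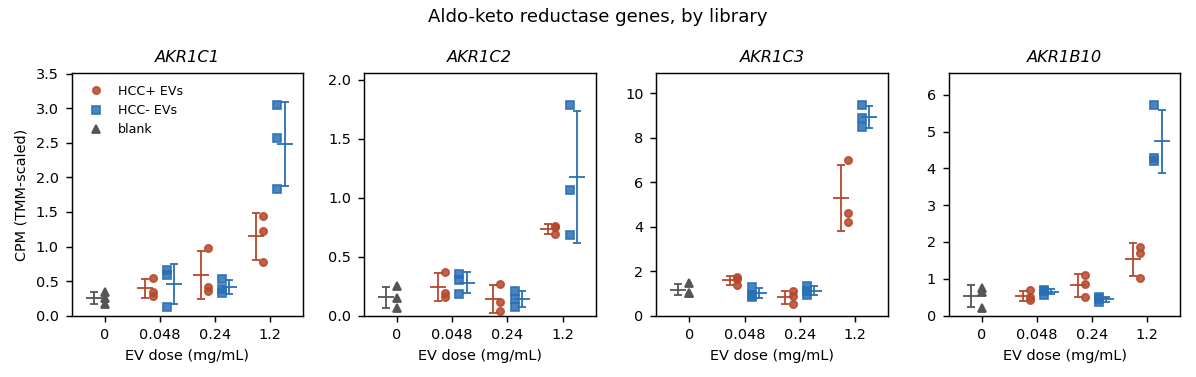
CPM of AKR1C1, AKR1C2, AKR1C3 and AKR1B10 in each library against EV dose in mg/mL, with the blank at 0; points are libraries and dashes with bars are the mean ± SD of 3 libraries. AKR1C3 at 1.2 mg/mL lies above every library of the lower doses and of the blank with both sources, and AKR1B10 is highest with HCC- EVs.

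The log2 fold changes against the blank were 2.19 ± 0.46 for AKR1C1, 2.18 ± 0.54 for AKR1C2, 2.17 ± 0.23 for AKR1C3 and 1.56 ± 0.34 for AKR1B10 with HCC+ EVs, with adjusted p of 0.000375, 0.00204, 1.43e-08 and 0.000632. With HCC- EVs they were 3.32 ± 0.45 for AKR1C1, 2.86 ± 0.53 for AKR1C2, 2.94 ± 0.23 for AKR1C3 and 3.19 ± 0.33 for AKR1B10, with adjusted p of 2.02e-07, 3.16e-05, 2.52e-12 and 1.26e-09. AKR1B10 was lower in HCC+ than in HCC- cells by -1.63 ± 0.29 (adjusted p = 3.59e-05), and AKR1B1, the aldose reductase, by -1.72 ± 0.16 (adjusted p = 1.16e-07). AKR1C1 was lower by -1.12 ± 0.37 (adjusted p = 0.0162), a call lost without HCC+ replicate 3 or HCC- replicate 3. CBR3, a carbonyl reductase, was higher in HCC+ cells by 1.28 ± 0.39 (adjusted p = 0.0113), a call lost without HCC+ replicate 3 (0.88).

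Haem and iron targets were split. Of 11 tested, 5 rose and 4 fell with HCC+ EVs (median 0.16) and 3 rose and 5 fell with HCC- EVs (median -0.26), and 6 were higher and 0 lower in HCC+ than in HCC- cells. Library totals alone gave 5 that rose and 2 that fell with HCC+ EVs and 4 of each with HCC- EVs, and 5 higher and 1 lower between the sources. ABCB6, a porphyrin transporter, rose with HMOX1 (1.10 ± 0.31 in HCC+ and 1.46 ± 0.31 in HCC- cells), on 64 counts in the blank. BLVRB, a biliverdin reductase that acts downstream of HMOX1, fell to 46.7, 38.6 and 43.9 CPM in HCC+ cells and 22.0, 25.9 and 22.4 CPM in HCC- cells, against 53.4, 66.6 and 48.8 CPM in the blank. Its changes were -0.39 ± 0.10 (adjusted p = 0.00216) for HCC+ and -1.27 ± 0.10 (adjusted p = 2.43e-12) for HCC- EVs. Biliverdin reductase A, BLVRA, rose in HCC+ cells (0.22 ± 0.08) and fell in HCC- cells (-0.53 ± 0.08), and FECH, which puts iron into haem, fell by -0.69 ± 0.06 in HCC- cells. TFRC, the transferrin receptor, rose by 0.59 ± 0.07 in HCC+ cells, and HRG fell there (-1.66 ± 0.53) on 35 counts, a call lost without HCC+ replicate 1 (-1.35). HRG encodes histidine-rich glycoprotein, which is not an established NRF2 target, and it is among the 4 falls with HCC+ EVs.

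Of 7 genes that remove superoxide and peroxide, 2 rose and 2 fell with HCC+ EVs (median 0.03) and 1 rose and 4 fell with HCC- EVs (median -0.55), and 4 were higher and 0 lower in HCC+ than in HCC- cells. Library totals alone gave 3 that rose and 1 that fell with HCC+ EVs and 3 that rose and 4 that fell with HCC- EVs, and 3 higher and 1 lower between the sources. With GC and length trends removed, 2 rose and 4 fell with HCC- EVs and 4 were higher and 1 lower between the sources. In HCC- cells PARK7 (-0.85 ± 0.06), SOD1 (-0.72 ± 0.06), the cytosolic superoxide dismutase, and catalase, CAT (-0.57 ± 0.06), fell. CAT was not called in HCC+ cells (0.06 ± 0.06), and the sources differed by 0.64 ± 0.06 (adjusted p = 2.17e-09).

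ATF4, the amino acid stress factor, is known to drive SLC7A11, CHAC1 and SESN2 as well, and most genes of a list of its other targets fell. Of 16 tested genes of that list 12 fell and 0 rose with HCC+ EVs (median -0.89) and 12 fell and 1 rose with HCC- EVs (median -0.60), or 9 and 3 with library totals alone. Between the sources 1 was higher and 5 lower in HCC+ cells, against 0 and 11 with library totals alone and 1 and 11 with GC and length trends removed. PSAT1, of serine synthesis, stood at 152, 162 and 161 CPM in HCC+ cells, 155, 158 and 165 CPM in HCC- cells and 551, 506 and 529 CPM in the blank, with changes of -1.74 ± 0.06 (adjusted p = 1.69e-19) for HCC+ and -1.73 ± 0.06 (adjusted p = 9.68e-20) for HCC- EVs. ASNS, asparagine synthetase, fell by -1.72 ± 0.14 with HCC+ and -0.87 ± 0.13 with HCC- EVs and was lower in HCC+ than in HCC- cells by -0.85 ± 0.14 (adjusted p = 1.49e-05).

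NQO1 is also a target of the aryl hydrocarbon receptor, which is activated by planar aromatic compounds. Of 7 tested genes of that list, NQO1 among them, 2 rose and 1 fell with HCC+ EVs (median 0.30), 3 rose and 1 fell with HCC- EVs (median 0.20), and between the sources NQO1 alone was called. Library totals alone and removal of GC and length trends each gave 4 that rose and 1 that fell with HCC+ EVs, 5 and 1 with HCC- EVs, and 1 higher and 2 lower between the sources. CYP1A1, the classic target of the receptor, stood at 28.4, 20.9 and 19.0 CPM in HCC+ cells, 23.9, 23.4 and 29 CPM in HCC- cells and 4.43, 4.21 and 3.84 CPM in the blank. It rose by 2.45 ± 0.17 (adjusted p = 1.89e-12) with HCC+ and 2.61 ± 0.17 (adjusted p = 2.34e-14) with HCC- EVs. In the same libraries NQO1 was lower than in the blank, and the part of the receptor in either change was not tested. AHR, the gene of the receptor, was called higher with HCC+ EVs. That call was lost without HCC+ replicate 1 (0.33) or 2 (0.31) or blank replicate 2 (0.26) or 3 (0.33). The sources differed by -0.16 ± 0.14 for CYP1A1 (adjusted p = 0.419).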

How the data were processed

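Poly(A) RNA of 21 HCT-116 libraries was compared. Per the labels, the kits were RNeasy for RNA and NEBNext Ultra II for libraries. Per the submitters' processing notes, the tools were cutadapt 3.4, HISAT2 2.2.1 and featureCounts 2.0.1, with build GRCh38, while no source used here gives their roles, the annotation release or the strand setting. The authors deposited raw counts of reads per gene and each gene's length, whose unit is bases per the file headers. Symbols were matched for 41967 of 65065 genes, and 27406 genes had no count.

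All libraries entered 1 edgeR 4.0.16 model of 7 group means under R 4.3.3, with TMM factors, filterByExpr, robust dispersions and the 2-sided quasi-likelihood test (14 residual degrees of freedom, common biological coefficient of variation 0.0885). FPKM was computed from CPM and length. The SE is the log2 fold change over the square root of F, and 95% intervals are 1.96 SE on each side. P-values were adjusted by Benjamini-Hochberg over 19556 genes within each of 14 comparisons. Total counts per library set the precision for genes with few counts. The 9 genes, the 9 companion lists, the marker lists and the rule for named genes were chosen with earlier results of these data known. The rule named all 9 genes, 7 regulators, up to 4 called genes of the largest change per list and comparison, and the 2 genes most like each member called in a comparison at 1.2 mg/mL between sources or with the blank, which leaves out GCLC. Library totals alone, GC content and length trends (from GENCODE v29, known for 99.7% of tested genes), RLE size factors, no filter except 1 count, a replicate block, only the groups compared, DESeq2 1.42.0 and each library left out in turn were alternatives. Same-numbered libraries of different groups did not deviate together, since 1 of 63 pairs had a residual correlation over 0.1, so the numbers were not used as pairs. No 2 libraries were identical, and replicates differed by more than counting noise (chi-square per gene of 4.99 to 31.8 over 21 pairs). The fit was also run on simulated counts in which a small share of genes changed in a single group and nothing else differed. That setting lacks the many changes called at 1.2 mg/mL, so it does not test the choice of scaling. Python 3.11.15 and matplotlib 3.10.9 drew the figures.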

Additional observations from a re-analysis of the deposited data

Results flagged for a closer look

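The effect of EV source changed between 0.048 and 1.2 mg/mL, in the test of that difference itself, for 3 of the 9 genes. NQO1 was the clearest, with 0.70 on the log2 scale: its levels were 367 ± 11.1 CPM in HCC+ and 216 ± 14.9 CPM in HCC- cells at 1.2 mg/mL, and 501 ± 7.62 CPM in HCC+ and 480 ± 14.5 CPM in HCC- cells at 0.048 mg/mL (SD, n = 3 each). TXNRD1 changed by 0.33, with 640 ± 43.3 CPM in HCC+ and 481 ± 21.7 CPM in HCC- cells at 1.2 mg/mL against 756 ± 11.4 CPM in HCC+ and 715 ± 19.6 CPM in HCC- cells at 0.048 mg/mL. SLC7A11 changed by -0.57, in the other direction. All 3 genes were tested among 19556, and the calls for TXNRD1 and SLC7A11 depend on the scaling or on single libraries as given above.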

How the results depend on the processing

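Of 1692 values of the 9 genes under an alternative, 1569 kept the call of the main analysis in its direction or, like it, were not called, whatever their sign. A further 65 lost the call with the sign kept, 48 gained one, and 10 lost it with the sign reversed. Among the gains, NFE2L2 for HCC- 1.2 against 0.048 mg/mL also changed sign, from -0.08 to 0.21 with library totals alone, where it was called higher. The reversals came with GC and length trends removed (GCLM 0.00 and ME1 0.07 for HCC- 1.2 mg/mL against blank, ME1 0.01 for HCC- 0.048 mg/mL against blank, GCLM -0.05 for HCC+ against HCC- at 1.2 mg/mL, GCLM 0.00 and ME1 0.01 for HCC- 1.2 against 0.24 mg/mL, ME1 0.06 against 0.048 mg/mL) and with library totals alone (NFE2L2 0.04 for HCC- 1.2 against 0.24 mg/mL, GCLM 0.04 and ME1 0.11 against 0.048 mg/mL). CUL3 was 0.11 with totals and 0.09 with the trends removed, and EPCAM 0.01 with the trends removed, for HCC- 1.2 mg/mL against blank. The cause of each was not tested.

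Counts of the 9 genes moved as follows. With the trends removed, 2 were higher against the blank for each source at 1.2 mg/mL, 0 higher and 0 lower for HCC- at 0.048 mg/mL, 5 lower for HCC+ against HCC- at 1.2 mg/mL, 2 higher for HCC+ 1.2 against 0.24 and 0.048 mg/mL, 2 higher and 3 lower for HCC- 1.2 against 0.24 mg/mL, and 3 lower for the difference between doses. With library totals alone, 2 were higher and 3 lower for HCC- 1.2 mg/mL against blank, 5 lower for HCC+ against HCC- at 1.2 mg/mL and 1 higher at 0.048 mg/mL, 2 higher for HCC+ and for HCC- 1.2 against 0.24 mg/mL, 3 lower for each against 0.048 mg/mL, and 1 higher and 4 lower for the difference between doses. Only the groups compared gave 2 higher and 2 lower for HCC+ against HCC- at 0.048 mg/mL and 2 lower for the difference between doses, and DESeq2 gave 1 higher, 1 lower and 2 lower there. No filter except 1 count gave 2 lower for HCC+ against HCC- at 1.2 mg/mL. With the replicate number as a block, 2 were lower in that comparison, SLC7A11 at -0.26 being called. The block also called SLC7A11 for HCC- 0.048 mg/mL against blank (-0.31) and lost NFE2L2 for HCC+ 1.2 against 0.048 mg/mL (-0.16), and same-numbered libraries did not pair.

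Leaving out 1 library gave, against the blank at 1.2 mg/mL, 1 higher and 5 to 6 lower for HCC+ and 1 higher and 6 to 7 lower for HCC-, and for HCC- at 0.048 mg/mL 0 to 2 higher and 0 to 4 lower. HCC+ against HCC- at 1.2 mg/mL had 3 to 4 higher and 1 to 2 lower, and the difference between doses 2 to 3 higher and 0 to 2 lower. HCC+ 1.2 mg/mL had 1 higher and 4 to 5 lower against 0.24 mg/mL and 3 to 5 lower against 0.048 mg/mL, and HCC- 1.2 mg/mL had 1 higher and 6 lower against 0.24 mg/mL and 1 to 2 higher and 4 to 6 lower against 0.048 mg/mL. Totals of 31.22 M or more leave counting error small for the 9 genes, with at least 240 counts in each library. That does not hold for genes with few counts, such as AKR1C1, AKR1C2, AKR1B10 and GPX2.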

Other observations

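Ratios of FPKM describe the balance within a pair of partners. The ratio of GCLM to GCLC, the modifier to the catalytic subunit of glutamate-cysteine ligase, was 0.831, 0.744 and 0.734 in HCC+ cells at 1.2 mg/mL, 0.629, 0.567 and 0.661 in HCC- cells and 0.916, 0.946 and 0.789 in the blank, and the HCC- libraries lay below all others of these groups. At 0.048 and 0.24 mg/mL it averaged 0.844 ± 0.0609 and 0.817 ± 0.00676 with HCC+ EVs and 0.864 ± 0.0699 and 0.858 ± 0.0425 with HCC- EVs (SD, n = 3 each). GCLM has the lower GC content of the pair, and no test was run on this ratio.

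The ratio of SLC7A11 to SLC3A2, the light chain to the heavy chain of the cystine transporter, was 0.0653 ± 0.00475 in HCC+ and 0.0566 ± 0.0141 in HCC- cells at 1.2 mg/mL and 0.0998 ± 0.0218 in the blank (SD, n = 3 each). In HCC- cells it was 0.0668 ± 0.0017 at 0.048 mg/mL and 0.0987 ± 0.0128 at 0.24 mg/mL, so it did not follow the order of the doses, while in HCC+ cells it was 0.0931 ± 0.00228 and 0.0929 ± 0.00873 at these doses.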
